A study of Arabidopsis thaliana with 625 samples.

Results

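The transcripts described here are those of the Arabidopsis mitochondrial genome, taken as every row of the expression tables whose identifier begins with ATMG. There were 152 such rows among 32833 gene rows, beside 133 rows of the chloroplast genome. They were read in 621 sorted cells of the shoots (aerial tissue) of Arabidopsis thaliana, harvested 10 days after germination and prepared with Smart-seq2, a plate-based method that copies full-length RNA from its poly(A) tail, followed by a miniaturized Nextera XT library preparation. Cells came from 2 reporter lines. TMMp::TMM-YFP expresses a fluorescent fusion of TMM, a receptor of the stomatal lineage, from its own promoter and gave 478 cells on 7 plates (pool 1 on plates TMM-1 and TMM-2, pool 2 on TMM3 to TMM7). ATML1p::YFP-RCI2A expresses a fluorescent membrane marker from an epidermal promoter and gave 143 cells on 5 plates (pool 1 on plates ML1 and ML2, pool 2 on ML1-5, ML1-6 and ML1-7). The lines are called TMMp and ATML1p below. The 4 droplet samples (10X Genomics) of the study were not analysed here.

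Plant mitochondria keep a small genome that encodes subunits of the respiratory complexes, of the ATP synthase and of the mitochondrial ribosome, proteins for cytochrome c maturation, ribosomal and transfer RNAs, and many open reading frames of unknown role. Most subunits of the respiratory chain are encoded in the nucleus, among them all those of complex II (succinate dehydrogenase) in Arabidopsis, so both genomes supply the other complexes. In plant mitochondria a poly(A) tail marks an RNA for degradation, and a nearly complete copy of the mitochondrial genome lies in Arabidopsis chromosome 2.

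Values are TPM, a relative transcript abundance. They are scaled for gene length and have the same sum in each cell. Read depth is lost in this unit. The count of genes detected in a cell (TPM of 1 or more) was used in its place, and a value of 0 can be a failed capture. Each sample is 1 cell, so pools and plates were the units of every test. Nothing in the labels says that pools came from separate plants or that plates of 1 pool did not share them, so p-values measure only the spread between pools or plates, which may be technical. Each plate held 1 line, so plate and line cannot be told apart. Plate ML2 stood apart, with 17 cells and a median of 1311 genes detected, against medians of 2777 genes over all TMMp cells and 3179 over all ATML1p cells. At least 1 of the 4 stomatal lineage markers (TMM, SPCH, MUTE, FAMA) was found in 90.6% of cells in TMMp and in 22.4% in ATML1p. At least 1 of the 2 epidermis markers (ATML1, PDF1) was found in 68.2% of cells in TMMp and 58.0% in ATML1p. The median of their summed TPM was 275 in TMMp cells and 11.0 in ATML1p cells. Vasculature markers were found in 4.81% of cells in TMMp and 6.29% in ATML1p, and trichome markers in 1.26% in TMMp and 0.699% in ATML1p. At least 10 of 15 photosynthesis genes typical of mesophyll were detected in 86 TMMp cells and 53 ATML1p cells.

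A few rows carried nearly all of the signal. The 3 highest, ATMG01390, ATMG00020 and ATMG00030, held 93.0% of the mitochondrial TPM of TMMp cells and 94.6% of that of ATML1p cells. Of the 152 rows, 54 were at 0 in all 621 cells and 98 were above 0 in at least 1 cell. The mean TPM over the 4 pools reached 100 in 10 rows and lay between 10 and 100 in 15, between 1 and 10 in 25, and above 0 but under 1 in 48. Only 10 rows were detected in at least 50% of all cells, and 31 in at least 10% of them. At least 1 cell detected 97 of the rows in TMMp and 66 in ATML1p, where fewer cells were sequenced. The reference annotation used here pairs no gene name with the 3 highest rows or with most others, so they are given by identifier and without a role.

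**Figure D1:**
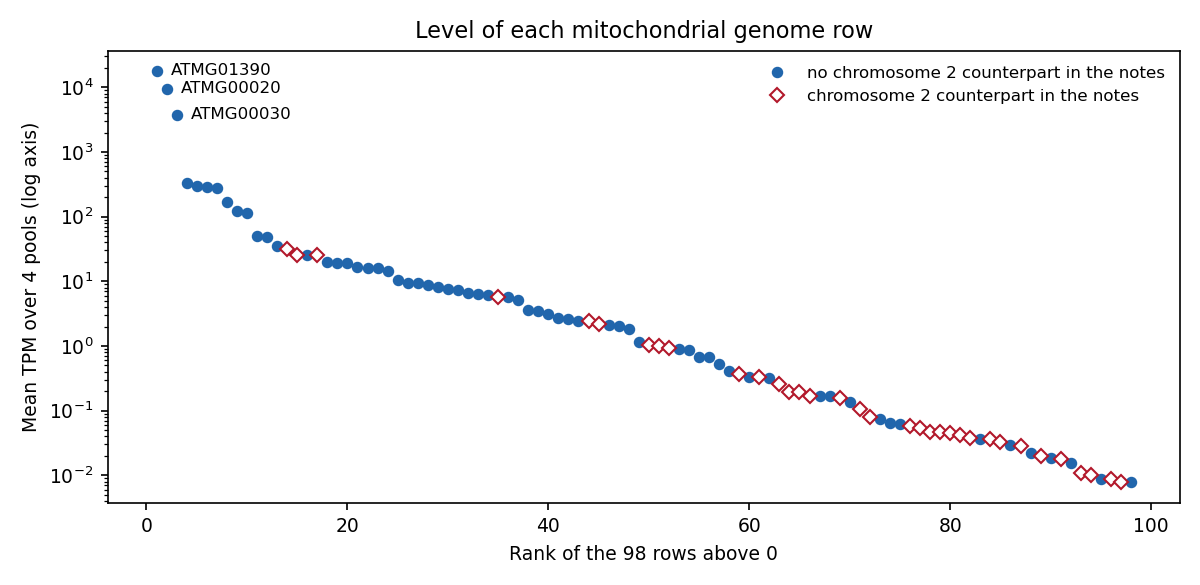
Mean TPM over the 4 pools (log axis) of each mitochondrial genome row above 0, ordered by level, with filled circles for rows without and open diamonds for rows with a chromosome 2 counterpart named in the annotation. The 3 labelled rows stand far above the rest, and 2 of the 15 highest rows have a counterpart.

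Names could be read for rows that the annotation pairs with a near copy on chromosome 2. Notes on 55 chromosome 2 loci named 53 of the 152 rows as their counterparts, and for 24 of these rows the notes gave a product. The 53 rows held 0.301% of all mitochondrial TPM, and the highest of them, ATMG00260, averaged 32.1 TPM over the pools. The other 99 rows held 99.7%, among them all 10 rows with a mean of at least 100 TPM. At a mean of at least 1 TPM there were 7 of the 53 rows and 43 of the 99. The share of rows at 0 in every cell was nearly the same, 35.8% with a counterpart and 35.4% without. Reads from such near-identical copies cannot be told apart in these tables, so the values of these rows and of their nuclear copies are uncertain.

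The following pairs are shown because they give the extent of this identity for a row near 0 and for the highest rows that have a product name or a close copy in the tables. Each line is 60 bases of the chromosome 2 locus or of the matching stretch of the mitochondrial genome (MT), from RefSeq TAIR10.1, 5′ to 3′, with capitals at bases that differ within the pair. The mitochondrial sequence of the deposited tables may differ from this one.
ATMG00220 counterpart AT2G07727: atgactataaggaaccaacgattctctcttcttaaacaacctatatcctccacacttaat
mitochondrial genome, cob: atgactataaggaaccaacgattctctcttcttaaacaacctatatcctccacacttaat
ATMG00560 counterpart AT2G07715: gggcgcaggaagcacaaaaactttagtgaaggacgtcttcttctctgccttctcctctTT
mitochondrial genome, rpl2: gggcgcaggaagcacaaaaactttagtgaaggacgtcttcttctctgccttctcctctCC
ATMG01220 counterpart AT2G07798: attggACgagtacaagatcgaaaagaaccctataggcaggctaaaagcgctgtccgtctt
mitochondrial genome: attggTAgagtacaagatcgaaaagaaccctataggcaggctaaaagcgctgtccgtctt
Over the longest aligned stretch, 1182 of 1182 bases were identical for AT2G07727, 904 of 907 for AT2G07715 and 244 of 246 for AT2G07798.

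The members of the pairs differed in level. ATMG00220, named apocytochrome b (the core subunit of complex III), averaged 0.0463 TPM over the pools, and its copy AT2G07727, identical over the stretch above, 0.603 TPM. ATMG00560, whose copy matches the ribosomal protein gene rpl2, averaged 25.8 TPM, and AT2G07715 7.62 TPM. ATMG01220, with no named role, averaged 25.9 TPM, and AT2G07798 1.98 TPM. These 3 pairs were chosen after their values were seen.

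Other rows named as subunits of respiration were close to 0. ATMG01190, ATP synthase subunit 1, averaged 0.0804 TPM, while its copy AT2G07698 averaged 19.4 TPM and was found in 80.8% of cells in TMMp and 65.0% in ATML1p. ATMG00730, cytochrome c oxidase subunit 3 of complex IV, averaged 0.0549 TPM and AT2G07687 0.738 TPM. Among pieces of complex I subunits, ATMG01275 (NADH dehydrogenase 1A) averaged 0.0469 TPM. ATMG01320 (NADH dehydrogenase 2B) averaged 0.998 TPM and was found in 6.69% of cells in TMMp and 3.50% in ATML1p. ATMG01330 has no product name in the notes, but its copy AT2G07808 matches the complex I gene nad2. This row averaged 5.72 TPM and was found in 17.2% of cells in TMMp and 9.09% in ATML1p. ATMG01090, named ATP synthase 9, averaged 2.42 TPM, the highest among rows with a respiratory product name. Its copy AT2G07777 aligned best to no named mitochondrial gene, so this name is uncertain. The row whose copy matches atp9 is ATMG01080, named mitochondrial F0-ATPase subunit 9, which averaged 0.170 TPM. Split by the alignment, the 35 rows with an identical copy (no mismatch in the best alignment and at least 90% of the locus covered) included 1 row at a mean of at least 1 TPM, and the 18 rows whose copy was not identical included 6.

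The same comparison was made from the mitochondrial side, without identifiers. Of 36 protein or ribosomal RNA genes of the RefSeq mitochondrial genome, 23 were covered over at least 90% of their length by chromosome 2. For 11 genes less than 50% was covered. These were the respiratory and ATP synthase genes atp4, cox1, cox2, nad4L and nad9, the cytochrome c maturation gene ccmB, the ribosomal protein genes rpl16 and rps3, and the ribosomal RNA genes rrn5, rrn18 and rrn26. The annotation does not say which ATMG rows these are.

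The mitochondrial share, the percent of a cell's TPM from the 152 rows, had a mean of 3.51% and a median of 2.73% over TMMp cells, and a mean of 2.85% and a median of 1.96% over ATML1p cells. Single cells ranged from 0.392% to 24.8% in TMMp and from 0.0287% to 25.0% in ATML1p. By plate, the mean share was 3.62% (TMM-1), 3.91% (TMM-2), 3.18% (TMM3), 3.51% (TMM4), 3.46% (TMM5), 3.51% (TMM6) and 3.36% (TMM7) in TMMp. In ATML1p it was 4.97% (ML2), 2.32% (ML1), 1.70% (ML1-5), 2.58% (ML1-6) and 3.41% (ML1-7). The TMMp plates lay close together and inside the range of the ATML1p plates, among which ML2 was the highest of all 12 plates and ML1-5 the lowest.

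The lines did not differ in this share beyond the spread of their plates. Plate means averaged 3.50 ± 0.226% in TMMp (SD, n = 7) and 3.00 ± 1.26% in ATML1p (SD, n = 5), a difference of 0.509 percentage points with p = 0.314 in a two-sided exact permutation test over plates. The smallest p that this test allows is 0.00126. The difference was 0.374 points within pool 1 and 0.779 points within pool 2. It depended on plate ML2 and on how cells were summarised. Without ML2 it was 1.00 points (exact permutation p = 0.00909), without all of ATML1p pool 1 0.943 points (exact permutation p = 0.025), and without ATML1p pool 2 −0.142 points. With the median cell of each plate it was 0.652 points (exact permutation p = 0.0164), and with cells of at least 2000 genes only, 0.906 points (exact permutation p = 0.0101). The chloroplast genome took 3.00 ± 0.417% of TPM in TMMp plates (SD, n = 7) and 5.22 ± 0.751% in ATML1p plates (SD, n = 5). As a percent of TPM outside chloroplast rows, the mitochondrial share was 3.67 ± 0.274% in TMMp and 3.24 ± 1.51% in ATML1p, a difference of 0.439 points (exact permutation p = 0.484).

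**Figure D2:**
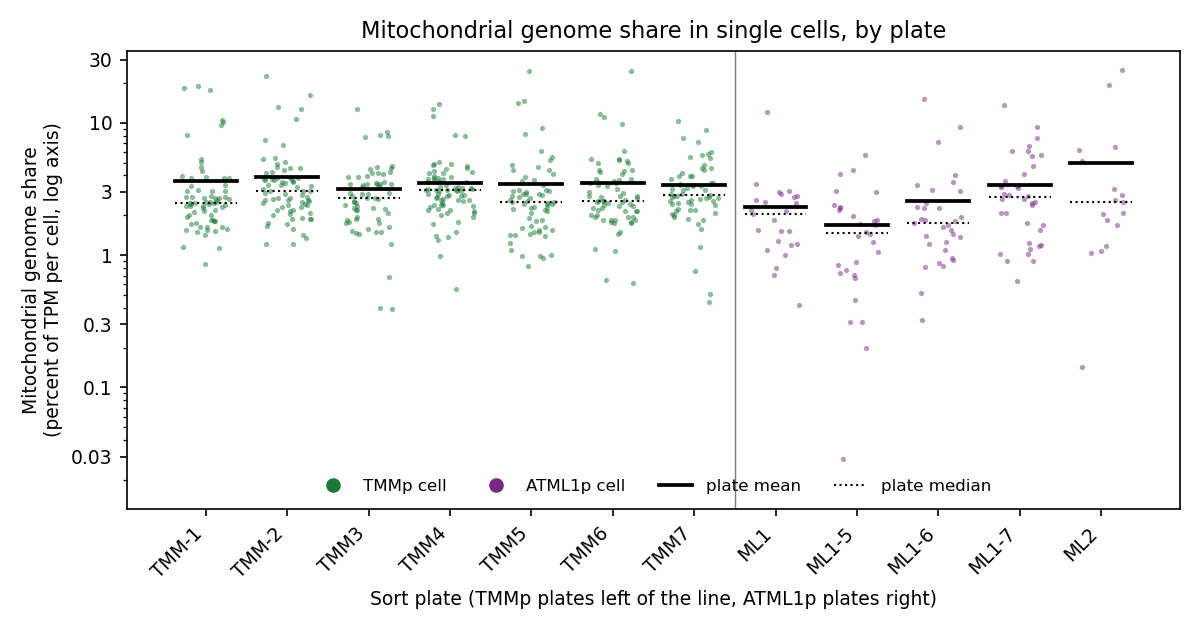
Percent of TPM from mitochondrial genome rows in each cell (log axis), by sort plate, with TMMp plates left and ATML1p plates right of the line, solid bars for plate means and dotted bars for plate medians. TMMp plate means lie between 3.18% and 3.91%, inside the ATML1p range of 1.70% to 4.97%.

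The make-up of the share differed between the pools of TMMp. ATMG01390 had a lowest, median and highest plate mean of 15724, 23420 and 26318 TPM in TMMp, and means of 23828 (ML2), 11761 (ML1), 8541 (ML1-5), 13962 (ML1-6) and 16630 TPM (ML1-7) in ATML1p. The plates of both lines overlapped, and the 2 lowest TMMp plates were the pool 1 plates TMM-1 and TMM-2. ATMG00020 went the other way within TMMp. It averaged 12567 and 12050 TPM on the pool 1 plates, and 4548, 4867, 4790, 6055 and 5526 TPM on the pool 2 plates, while ATML1p plates ran from 5466 to 17731 TPM. ATMG00030 averaged 5078 and 7364 TPM on the TMMp pool 1 plates and 1444 to 3363 TPM on the pool 2 plates, against 2011 to 5469 TPM on ATML1p plates.

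Set against ATMG01390, the level of ATMG00020 was 0.799 and 0.729 on the TMMp pool 1 plates, 0.182 to 0.262 on the TMMp pool 2 plates, and 0.584 to 0.744 on ATML1p plates. The TMMp pools did not overlap in this ratio, and of the TMMp pool 1 plates TMM-2 lay within and TMM-1 above the ATML1p range. With ATMG01390 left out, the share by line had the opposite sign, −0.208 points (exact permutation p = 0.592). Without all 3 highest rows the remaining share was 0.245 ± 0.0451% in TMMp plates and 0.160 ± 0.0736% in ATML1p plates (SD, n = 7 and 5), a difference of 0.0848 points (exact permutation p = 0.0354).

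**Figure D3:**
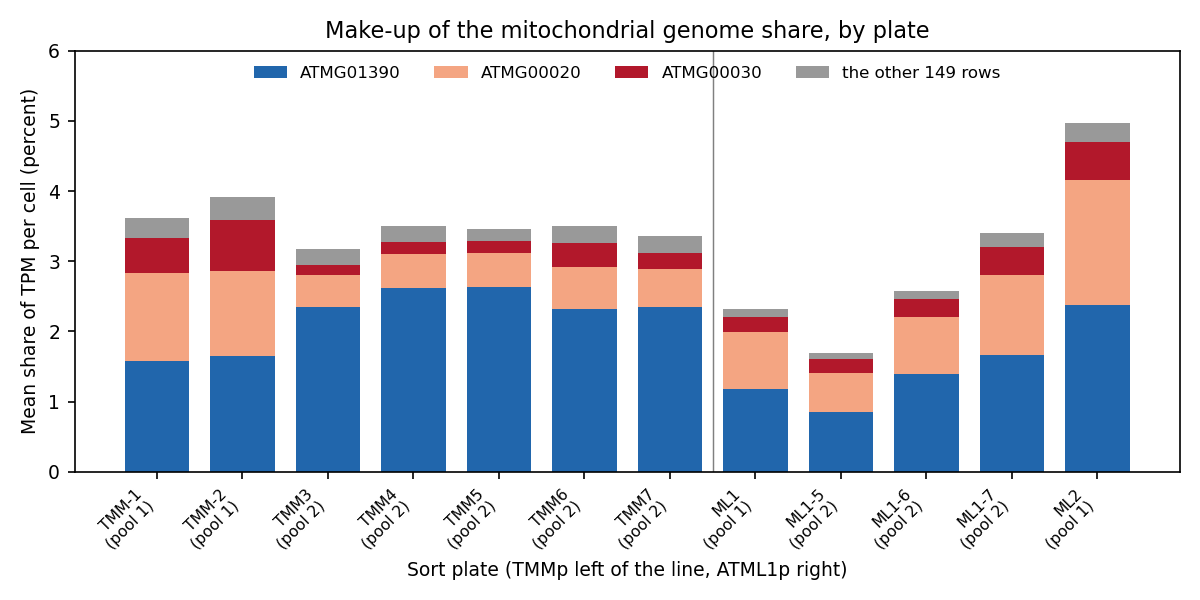
Mean share of TPM per cell (percent) from ATMG01390, ATMG00020, ATMG00030 and the other mitochondrial genome rows, stacked by sort plate, with TMMp left and ATML1p right of the line. The TMMp pool 1 plates TMM-1 and TMM-2 hold more ATMG00020 and less ATMG01390 than the TMMp pool 2 plates.

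Across the cells of a plate, the 3 highest rows moved together. The Spearman correlation of ATMG01390 with ATMG00020 averaged 0.74 over the 7 TMMp plates (0.64 to 0.82) and 0.81 over the 5 ATML1p plates (0.74 to 0.87). For ATMG01390 with ATMG00030 it averaged 0.68 in TMMp and 0.74 in ATML1p. The fourth row by level, ATMG01360, followed ATMG01390 less closely, at 0.34 in TMMp and 0.36 in ATML1p. These values describe 478 and 143 cells that share plates and a fixed sum of TPM, and depth per cell is unknown.

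No member passed the test between the lines at the level of pools, which with 2 pools a line does not show that they were alike. Of the 152 rows, 53 had a mean of at least 1 TPM in at least 2 of the 4 pools and entered a limma fit over 18391 genes, and 99 did not. At an adjusted p under 0.05 (Benjamini-Hochberg over all tested genes, threshold used throughout), 0 of the 53 were called, where 2.34% of all tested genes were (0.462% higher and 1.88% lower in TMMp). At an unadjusted p under 0.05 there were 12 of the 53 rows, and 3984 of all 18391 tested genes. Fold changes are differences of log2(mean TPM + 1). Their median over the 53 rows was 1.04 and over all tested genes 0.32, with 48 rows positive and 5 negative. After quantile normalization between pools the medians were 0.84 for the rows and 0.16 for all genes. Both TMMp pools lay above both ATML1p pools for 34 of the 53 rows, which 34.6% of all tested genes also did, and below them for 1 row, ATMG00160, against 19.8% of all genes. A row high in a single line could pass this filter, so these counts describe the rows that passed and not all 152.

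The next most abundant rows had positive differences that did not pass the test. ATMG00660 averaged 163 and 153 TPM in the TMMp pools and 61.2 and 73.4 TPM in the ATML1p pools, a log2 difference of 1.22 ± 0.30 (SE, limma adjusted p = 0.0845). ATMG00665 averaged 402 and 343 TPM in the TMMp pools and 137 and 239 TPM in the ATML1p pools (1.03 ± 0.35, limma adjusted p = 0.155). ATMG00070 averaged 163 and 162 TPM in the TMMp pools and 71.5 and 84.4 TPM in the ATML1p pools (1.05 ± 0.30, limma adjusted p = 0.111). In these 3 rows the pools of the lines did not overlap. ATMG01120 averaged 365 and 332 TPM in the TMMp pools and 271 and 166 TPM in the ATML1p pools. ATMG01130 averaged 88.4 and 49.0 TPM in the TMMp pools and 23.0 and 35.8 TPM in the ATML1p pools, and ATMG00670 59.3 and 34.7 TPM against 18.8 and 25.8 TPM. ATMG01360, ATMG00090 and ATMG00080 overlapped between the lines, with log2 differences of 0.30, 0.50 and 0.45.

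The largest differences were in rare rows. ATMG09960 averaged 5.78 and 23.3 TPM in the TMMp pools and was listed at 0 in both ATML1p pools (limma adjusted p = 0.0657). It was detected in only 8 TMMp cells (1.67%), with 6126 TPM in the highest cell. Its TMMp plate means ran from 0 to 106 TPM with a median of 2.37 TPM. ATMG01410 averaged 19.5 and 3.92 TPM in the TMMp pools and 0 and 2.32 TPM in the ATML1p pools. It was detected in 2.93% of TMMp cells, with 2094 TPM in the highest cell. ATMG00285 averaged 5.28 and 4.94 TPM in the TMMp pools and 0.251 and 0.512 TPM in the ATML1p pools, ATMG00630 11.4 and 15.3 TPM against 0 and 11.5 TPM, and ATMG01020 12.4 and 9.07 TPM against 2.34 and 2.52 TPM. At the other end, ATMG00160 averaged 36.1 and 36.0 TPM in the TMMp pools and 87.8 and 38.6 TPM in the ATML1p pools, with a log2 difference of −0.68 that became 0.17 without plate ML2. ATMG00020, ATMG00690, ATMG00010 and ATMG00770 had log2 differences of −0.35, −0.25, −0.24 and −0.03.

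With the plate in place of the pool as the unit, limma called 8 of the 53 rows, all higher in TMMp, where 15.1% of all tested genes were called in either direction and 9.00% were higher. They were ATMG00070, ATMG00285, ATMG00560, ATMG00650, ATMG00660, ATMG00665, ATMG01020 and ATMG01400. ATMG00650 had the largest such difference, 2.52 ± 0.65 (SE, limma adjusted p = 0.0129), with TMMp plate means from 15.7 to 117 TPM and ATML1p plate means from 0.451 to 28.5 TPM. Of the rows in this set, ATMG00560 was the one whose name could be read. It was detected in 62.3 ± 9.03% of the cells of TMMp plates and 42.8 ± 12.3% of those of ATML1p plates (SD, n = 7 and 5). Plates of 1 pool are not known to be independent, and treating them as correlated within pools left 2 of these rows called, ATMG00650 and ATMG00660. In that fit 2109 of all 18391 tested genes were called. Without ATML1p pool 1 the median log2 difference in the pool fit was 0.87 over the tested rows and 0.19 over all tested genes. Without ATML1p pool 2 these medians were 1.19 and 0.45.

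The number of mitochondrial rows detected per cell had a plate mean of 14.6 ± 1.95 rows in TMMp (SD, n = 7, lowest 11.9, highest 17.9) and 11.3 ± 1.78 rows in ATML1p (SD, n = 5, lowest 9.06, highest 13.8). The plates of the lines overlapped. The part of genes detected in this was not tested.

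The share was higher in cells with few genes detected. In TMMp it averaged 12.7% in 16 cells under 1000 genes, 4.33% in 86 cells of at least 1000 but under 2000, 3.01% in 268 cells of at least 2000 but under 4000, and 2.76% in 108 cells of 4000 genes or more. In ATML1p the same ranges averaged 5.75% (9 cells), 4.27% (32 cells), 2.34% (49 cells) and 1.99% (53 cells). Cells under 2000 genes had the higher mean share in 7 of 7 TMMp plates, by 0.922 to 7.66 points, and in 4 of 5 ATML1p plates. Plate ML1-5 went the other way, with 1.27% in cells under 2000 genes and 1.85% in the others. The Spearman correlation across the cells of a plate averaged −0.26 in TMMp (−0.42 to −0.13, 7 plates) and −0.32 in ATML1p (−0.64 to −0.08, 5 plates). For the share without the 3 highest rows it averaged −0.04 in TMMp and −0.03 in ATML1p. Both measures come from the same fixed sum of TPM, so they are not independent.

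**Figure D4:**
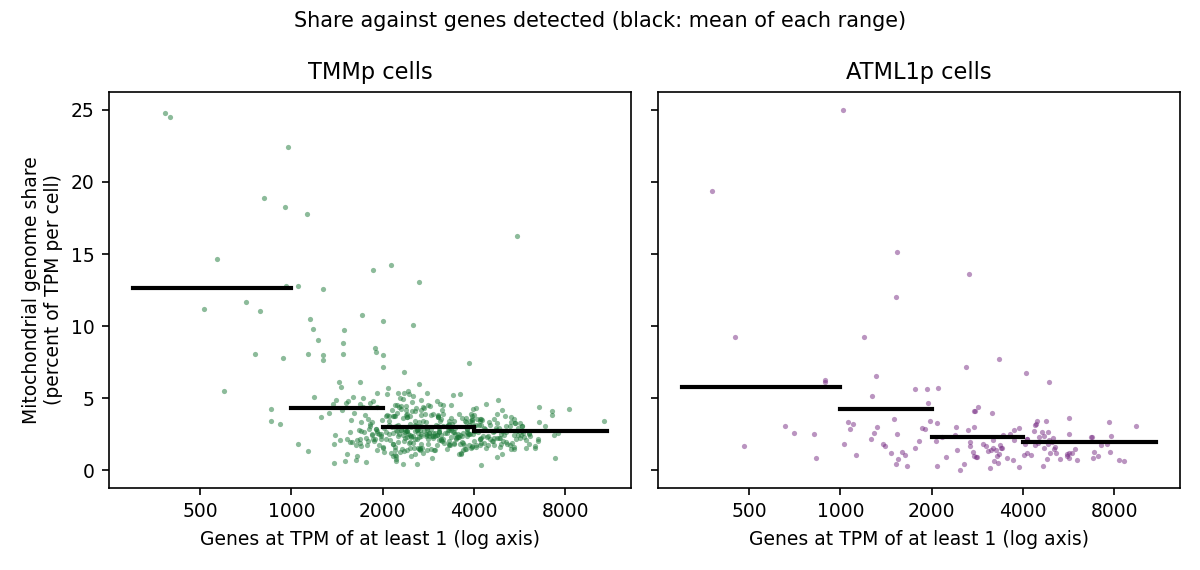
Mitochondrial genome share (percent of TPM per cell) against genes detected (TPM of 1 or more, log axis), with each point a cell, TMMp left and ATML1p right, and black lines for the mean of each range of genes. The mean is 12.7% in TMMp cells under 1000 genes and 2.76% in those of 4000 or more.

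The share was above 10% in 26 cells, 21 TMMp and 5 ATML1p, and 20 of the 26 had under 2000 genes detected. The TMMp cells among them had a median of 1055 genes and a median chloroplast share of 9.57%, came from all 7 plates and included 6 with a stage gene. Shares under 1% were found in 15 TMMp cells and 26 ATML1p cells.

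Mitochondrial and chloroplast transcripts varied together across TMMp cells. The Spearman correlation of the shares averaged 0.49 over the 7 TMMp plates (0.40 to 0.58), against −0.08 over the 5 ATML1p plates (−0.31 to 0.26), where it was above 0 in 1 plate. In cells of at least 2000 genes it averaged 0.39 in TMMp and −0.16 in ATML1p. Without the cells rich in photosynthesis genes it averaged 0.54 in TMMp (392 cells) and 0.17 in ATML1p (90 cells, above 0 in 5 of 5 plates). The difference between lines in this relation was not tested, and both shares come from 1 total.

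The sort signals, recorded for each cell as it entered its well, had little relation to the full share. For the area of the FITC channel, which reads YFP, the Spearman correlation averaged 0.03 in TMMp plates (−0.11 to 0.36) and 0.12 in ATML1p plates (−0.37 to 0.39). For forward scatter area, which follows cell size, it averaged 0.01 in TMMp and 0.01 in ATML1p, and for side scatter area −0.02 in TMMp and −0.06 in ATML1p. For the share without the 3 highest rows, the FITC area gave 0.11 in TMMp and 0.30 in ATML1p (0.14 to 0.47, above 0 in 5 of 5 plates), and forward scatter area gave 0.03 in TMMp and 0.24 in ATML1p (0.08 to 0.54, above 0 in 5 of 5 plates), but −0.03 in ATML1p cells of at least 2000 genes. The transcript level of TMM itself gave −0.09 with the full share in TMMp.

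Stage cells were those with a TPM of at least 1 for a transcription factor of the stomatal lineage. SPCH starts the asymmetric divisions of the lineage, MUTE ends them, and FAMA acts in the last division and in guard cell formation. The comparison was made within the 7 TMMp plates against the 334 cells with none of the 3 genes, which numbered 42 to 51 per plate. There were 77 SPCH cells (5 to 20 per plate), 35 MUTE cells (2 to 7 per plate) and 55 FAMA cells (4 to 12 per plate), and a cell could be in more than 1 class.

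FAMA cells had a lower mitochondrial share. By plate it was 2.34% in FAMA cells and 4.03% in cells without a stage gene (TMM-1), 2.27% and 3.65% (TMM-2), 2.19% and 3.37% (TMM3), 2.37% and 3.82% (TMM4), 2.79% and 3.30% (TMM5), 2.31% and 3.79% (TMM6), and 2.60% and 3.30% (TMM7), in the same order. The highest FAMA plate lay under the lowest plate of cells without a stage gene. The plate means averaged 2.41 ± 0.209% in FAMA cells and 3.61 ± 0.291% in cells without a stage gene (SD, n = 7), a difference of −1.20 points. It was negative in 7 of 7 plates, with p = 0.0156 in a two-sided exact sign-flip permutation test, the smallest this test allows, and 0.0469 after Benjamini-Hochberg adjustment over the 3 classes. Leaving out any plate keeps the sign in all 6 others but raises the smallest possible p to 0.0312 (adjusted 0.0938).

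Genes detected moved with this result. FAMA cells had a median of 4308 genes and none of the 55 had under 2000, while cells without a stage gene had a median of 2452 genes and 95 of the 334 had under 2000. Shares over 10% occurred in 0 of 55 FAMA cells and 15 of the 334. Among cells of at least 2000 genes the difference was −0.477 points, negative in 6 of 7 plates (exact permutation p = 0.0625, adjusted 0.188). With plate medians it was −0.434 points (exact permutation p = 0.0938, adjusted 0.141). The mean chloroplast share was 1.63% in FAMA cells and 3.21% in cells without a stage gene, and outside chloroplast rows the difference in mitochondrial share was −1.34 points, with the same p. In ATML1p, where no test was run, the share averaged 2.12% in 17 FAMA cells and 2.99% in 121 cells without a stage gene, but the medians ran the other way, 2.27% in FAMA cells and 1.85% in the others. The FAMA mean was lower on 4 of 5 ATML1p plates and higher by 0.148 points on ML1-5. These plates held few FAMA cells, 1 (ML2), 2 (ML1), 3 (ML1-5), 6 (ML1-6) and 5 (ML1-7).

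SPCH and MUTE cells did not differ from cells without a stage gene beyond the spread of plates. The plate means averaged 3.65 ± 0.796% in SPCH cells and 3.61 ± 0.291% in cells without a stage gene (SD, n = 7), lower in 4 plates and higher in 3 (difference 0.0443 points, exact permutation p = 0.922, adjusted 0.922). In MUTE cells they averaged 3.15 ± 1.19%, a difference of −0.461 points, again lower in 4 plates and higher in 3 (exact permutation p = 0.359, adjusted 0.539). Among cells of at least 2000 genes the SPCH difference was 0.523 points, higher in 5 of 7 plates (exact permutation p = 0.188, adjusted 0.281), and with plate medians 0.318 points (exact permutation p = 0.0938, adjusted 0.141). Both classes also had more genes detected, with medians of 4164 in SPCH and 4228 in MUTE cells. Differences between the 3 classes were not tested.

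**Figure D5:**
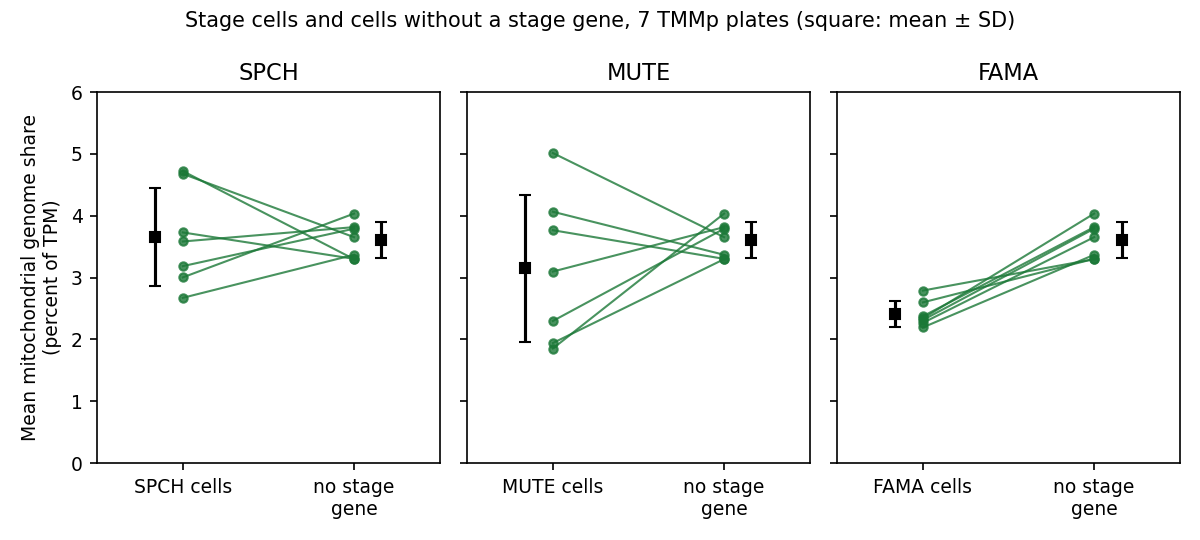
Mean mitochondrial genome share (percent of TPM) of SPCH, MUTE and FAMA cells, each left of the cells without a stage gene in the same plate, for 7 TMMp plates joined by lines, with squares for mean ± SD. The line falls to the FAMA side in 7 of 7 plates, and in 4 of 7 for SPCH and for MUTE.

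Single rows were also compared in FAMA cells. The 3 highest rows hold 93.0% of the mitochondrial TPM of TMMp cells, so their differences largely repeat that of the share. In a limma fit over 13721 genes with the plate as a block, 40 members were tested, 10 were lower and 0 higher in FAMA cells. In each stage fit a row could pass the filter on low values through cells without a stage gene alone. Such a row, if rare, is more likely to be called lower, so these counts describe only the rows that passed. Of all tested genes 12.6% were lower, 11.0% higher and 23.6% called in either direction. The median log2 difference was −0.78 over the 40 members and −0.16 over all tested genes. ATMG01390 averaged 15641 TPM in FAMA cells and 22907 TPM in cells without a stage gene (−0.60 ± 0.13, SE, limma adjusted p = 0.00471), lower in 7 of 7 plates. Its plate values ran from 8960 to 21472 TPM in FAMA cells and from 15761 to 28551 TPM in the others, so they overlapped across plates. ATMG00020 averaged 4643 TPM in FAMA cells and 7536 TPM in cells without a stage gene (−0.69 ± 0.15, limma adjusted p = 0.00328). ATMG00030 averaged 2261 TPM in FAMA cells and 3259 TPM in the others (−0.55 ± 0.15, limma adjusted p = 0.0146). Both were lower in 7 of 7 plates.

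The other 7 called rows were rarer. ATMG00110 averaged 3.96 TPM in FAMA cells and 27.6 TPM in cells without a stage gene, with FAMA plate means of 0 to 11.4 TPM and means of 15.5 to 41.3 TPM in the others, which did not overlap. ATMG00080 averaged 94.9 TPM in FAMA cells and 170 TPM in the others, and ATMG00665 190 and 372 TPM in that order, each lower in 6 of 7 plates. ATMG00650 averaged 9.70 TPM in FAMA cells and 43.6 TPM in the others, ATMG00630 1.90 and 11.4 TPM, ATMG01170 0.869 and 7.99 TPM, and ATMG00285 0.365 and 5.90 TPM, in that order. ATMG00285 and ATMG00630 were at 0 in the FAMA cells of 5 of 7 plates and ATMG01170 in those of 4, classes of 4 to 12 cells in which a row seen in few cells can be missed.

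These calls depended on how cells were chosen and averaged. Among cells of at least 2000 genes 3 calls were left, ATMG00110, ATMG00285 and ATMG00630, all lower and shared with the 10. Of all 13560 genes tested there, 1581 were lower. ATMG00285 and ATMG00630 were detected in 5.45% and 3.64% of FAMA cells, and in 9.28% and 4.79% of cells without a stage gene. With the mean of log2(TPM + 1) over cells in place of log2 of the mean, 2 rows were called, both higher in FAMA cells, and none of the 10. In that fit 4681 of all 13721 tested genes were higher and 789 lower. The averages differed most for ATMG00665. It was detected in 29.1% of FAMA cells and 23.7% of cells without a stage gene, and its log2 difference was −2.26 on the mean TPM and 0.34 on the mean log scale.

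In SPCH cells 0 of 45 tested members were called, where 17.7% of all tested genes were, and 0 of the 45 had an unadjusted p under 0.05. In MUTE cells 2 of 40 were called, both lower, where 9.95% of all tested genes were lower and 12.6% were called. ATMG01400 averaged 0.621 TPM in MUTE cells, where it was at 0 in 6 of 7 plates, and 7.47 TPM in cells without a stage gene (limma adjusted p = 0.0137). It was detected in 2.86% of MUTE cells and 2.99% of the others, with 2 to 7 MUTE cells per plate. This row passed the filter through cells without a stage gene, whose lowest plate mean was 3.59 TPM. ATMG00020 averaged 5322 TPM in MUTE cells and 7536 TPM in the others (limma adjusted p = 0.0459), lower in 5 of 7 plates, and was not called among cells of at least 2000 genes (limma adjusted p = 0.0751).

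Many nuclear genes for subunits of the respiratory chain and the ATP synthase were higher in FAMA cells. Of a list of 59 such genes, 58 were tested, 31 were higher and 0 lower, where 11.0% of all tested genes were higher and 12.6% lower. Among cells of at least 2000 genes 23 were higher, where 1268 of all 13560 tested genes were. Complex V, the ATP synthase, had 8 of 9 genes higher and complex I 13 of 19. The largest differences were in SDH1-1, the flavoprotein subunit of succinate dehydrogenase (2.26 ± 0.30, limma adjusted p = 0.000138), AT3G10860 of complex III (1.99 ± 0.34), AT3G12260 and AT5G52840 of complex I (1.90 ± 0.36 and 1.90 ± 0.39) and AT3G62400 of complex IV (1.81 ± 0.44). The median over the 58 genes was 1.16 and over all tested genes −0.16. In SPCH cells 23 of 59 were higher and 0 lower, where 10.2% of all tested genes were higher and 7.54% lower. Without plate TMM-2, 11 were higher in SPCH cells, where 923 of all 14154 tested genes were. Without TMM5, 15 were higher, where 1107 of all 14592 tested genes were. In MUTE cells 4 were higher and 1 lower, where 2.67% of all genes were higher and 9.95% lower. The MUTE calls fell to 2 without TMM-2, 2 without TMM4 and 1 without TMM5. In these fits 1407 of 12858, 1161 of 13246 and 1288 of 13114 tested genes were called, in that order.

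A list of 26 nuclear genes for mitochondrial transcription, RNA processing and DNA maintenance gave 3 of 17 tested genes lower and 0 higher in FAMA cells, where 12.6% of all tested genes were lower. In this list 0 were called without plate TMM5 or without TMM6, 1 without TMM-1 and 1 with no filter on low values. Over all tested genes these fits called 3043 of 14009, 2866 of 13745, 2655 of 13660 and 2849 of 22527, in that order. On mean logs 0 of the list were lower and 2 higher, where 789 of all 13721 tested genes were lower and 4681 higher. The 3 genes were the mitochondrial RNA polymerase gene MGP3 (−1.89 ± 0.62, limma adjusted p = 0.0382), the RNA editing factor MORF1 (−2.49 ± 0.83, limma adjusted p = 0.0434) and the DNA-binding protein MTSSB (−2.71 ± 0.79, limma adjusted p = 0.022). In SPCH cells RIP1, an RNA editing factor, was higher (1.14 ± 0.28, limma adjusted p = 0.0126) and no other of the 20 tested genes was called, where 17.7% of all tested genes were. Between the lines 0 of 59 and 0 of 24 genes of these lists were called, where 2.34% of all tested genes were. In the same fit 6 of the 59, 2 of the 24 and 3984 of all 18391 tested genes had an unadjusted p under 0.05. With the plate as unit 5 of the 59 (1 higher and 4 lower in TMMp) and 2 of the 24 (both higher) were called, where 15.1% of all tested genes were. Without ATML1p pool 2 the median log2 difference in the pool fit was −0.22 over the respiratory genes and 0.21 over the other list. With all 4 pools these medians were −0.21 and 0.36. The summed share of the 59 respiratory genes was 0.553 ± 0.0632% of TPM in TMMp plates and 0.636 ± 0.0561% in ATML1p plates (SD, n = 7 and 5), and that of the 26 genes of the other list 0.0383 ± 0.00312% in TMMp plates and 0.0293 ± 0.00398% in ATML1p plates, with overlapping plates for both lists. The Spearman correlation of the respiratory share with the mitochondrial share across the cells of a plate averaged 0.01 in TMMp and 0.15 in ATML1p.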

How the data were processed

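The authors deposited expression as TPM of each gene in each cell, 1 table per line, and sort signals as log2 values per cell, per the file headers. How Smart-seq2 reads became TPM is not given in the sources used here. Processing notes of the submitters name Cell Ranger and TAIR10 without a role. No cell was removed, no pair of cells had identical values, and doublets were not called, since that needs counts.

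Shares were summed per cell and averaged per plate. Plates were compared by exact permutation, and stage classes by exact sign flips within plates. Single genes were fitted with limma 3.58.1 (R 4.3.3) on log2(mean TPM + 1) with an intensity trend, over all genes with a mean of at least 1 TPM in at least 2 pools or, for stages, in at least 50% of columns. The fits were tested on simulated data. Chromosome 2 loci were aligned to the mitochondrial genome of TAIR10.1 with blastn 2.17.0. The builds differ in name, so no coordinates are given.

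Nuclear genes of the respiratory chain (59) and of mitochondrial gene expression (26) were read from the same fits as lists. The members and lists were chosen with earlier results of these data known. Named are the 15 highest rows, rows called in the pool or stage fits, the 5 highest and 5 lowest differences between lines, pieces of nad subunits, and up to 5 called genes of each list in each direction. Rows called with the plate as unit, and the rows paired with chromosome 2, were named after their values were seen.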

Additional observations from a re-analysis of the deposited data

Results flagged for a closer look

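In plate ML2 of ATML1p, 2 rows stood far above the other 4 plates of the line. ATMG00080 averaged 385 TPM there and at most 139 TPM on the other ATML1p plates, and ATMG00160 averaged 178 TPM there and at most 45.1 TPM on the others. Over 47 groups of plates examined these 2 gaps passed Dixon's 95% limit, which chance passes in about 1 group in 20. Plate ML2 held 17 cells with a median of 1311 genes detected.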

How the results depend on the processing

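The share by line passed the 0.05 level as a plate median (0.652 points), as the mean of log2(percent + 0.1) (0.51), in cells of at least 2000 genes (0.906), without the 3 highest rows (0.0848), and without ML2 (1.00). It turned to −0.208 without the highest row. Leaving out plates or pools gave −0.142 to 1.00. Outside chloroplast rows the difference was 0.595 as a plate median, 0.48 on the log2 scale and 0.903 in cells of at least 2000 genes. There it was −0.252 without the highest row, and leaving out plates or pools gave −0.395 to 1.05. Same-numbered pools did not deviate together (r = 0.0473 over 18391 genes), so pool numbers do not pair them; with the replicate block the share by line had p = 0.327 (0.455 outside chloroplast rows, exact permutation) and 3 members were called. By line, 1 member was called on mean logs, 8 by plate, 2 by plate with correlated pools, and 0 to 16 without a pool; where 1 pool was left, limma took its spread from the other line.

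The FAMA share was −0.434 by medians, −0.34 on the log2 scale and −0.477 in cells of at least 2000 genes, none past the threshold, and −1.31 to −1.11 (adjusted p = 0.0938) without 1 plate. The MUTE share turned to 0.0598 without the 3 highest rows and ran from −0.765 to −0.174 without 1 plate. The SPCH share turned to −0.00105 outside chloroplast rows and ran from −0.186 to 0.224. FAMA calls numbered 6 without the filter, 3 in cells of at least 2000 genes, 2 on mean logs, and 6 (without TMM6) to 9 without 1 plate. Over all tested genes the FAMA calls were 2849 of 22527, 2849 of 13560 and 5470 of 13721 in the first 3 of these settings. Without 1 plate they ran from 2655 to 3085. MUTE calls numbered 1 with a pseudocount of 0.1, 1 without the filter, 1 with no replicate block, 0 in cells of at least 2000 genes, 6 on mean logs, and 1 to 2 without 1 plate. Over all tested genes the MUTE calls were 1659 of 13047, 1070 of 22163, 1869 of 13047, 1293 of 12829 and 2334 of 13047, in that order. Without 1 plate they ran from 1161 to 1492. SPCH calls numbered 1 in cells of at least 2000 genes, 15 on mean logs and 0 without any 1 plate. Over all tested genes the SPCH calls were 2120 of 14254 and 6319 of 14412 in the first 2 of these settings. Without 1 plate they ran from 1684 to 2405.

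By line, ATMG00020 turned to 0.0045 on mean logs and ran from −0.97 to 0.28 without 1 pool. ATMG00030 turned to −0.13 by plate and −0.072 with correlated pools and ran from −0.62 to 0.95 without 1 pool. ATMG01360 ran from −0.16 to 0.75 without 1 pool, and ATMG00160 turned to 0.17 without ML2. ATMG00665 in FAMA cells turned to 0.34 on mean logs. The cause was not tested. Chosen after seeing the data were mean logs for the stage fits, shares without the 3 highest rows, stage shares outside chloroplast rows, and the pool fit without ML2. Leaving out ribosomal RNA rows was not run, because the reference pairs no such name with a row. Unknown depth limits all values near 0.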

Other observations

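The rows AT2G07660 to AT2G07820, which hold most of the chromosome 2 counterpart loci and nuclear genes beside them, were read as a group of their own. Of 89 rows, 44 were counterparts named in the notes, 37 were at 0 in every cell and 15 had a mean of at least 1 TPM over the pools. Expression values were given for 46 counterpart loci, so the range does not hold all of them. Outside it, AT2G07835, the counterpart of ATMG00400, averaged 28.3 TPM over the pools. AT2G07835 was found in 56.3% of cells in TMMp and 49.0% in ATML1p, while ATMG00400 was at 0 in both lines. The highest of the 89 rows was MCM5, a nuclear gene for DNA replication licensing, at 51.7 and 22.5 TPM in the TMMp pools and 7.08 and 4.38 TPM in the ATML1p pools. AT2G07698, the copy of ATP synthase subunit 1, averaged 32.5 and 16.5 TPM in the TMMp pools and 15.0 and 13.6 TPM in the ATML1p pools. AT2G07805 averaged 18.8 and 2.31 TPM in the TMMp pools and 1.04 and 10.6 TPM in the ATML1p pools, AT2G07715 10.7 and 9.11 TPM against 5.40 and 5.23 TPM, and AT2G07665 9.11 and 4.32 TPM against 3.89 and 4.73 TPM.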
